A study of Homo sapiens with 2 samples.

Results

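The genes described here encode the subunits of oxidative phosphorylation, the machinery in the inner mitochondrial membrane that turns the oxidation of nutrients into ATP. They were chosen by name: every RNA row of the deposited table that begins with NDUFA, NDUFB, NDUFC, NDUFS, NDUFV, UQCR, ATP5F1, ATP5M, ATP5P, COX4I, COX5, COX6, COX7 or COX8, leaving out the NDUFAF assembly factors, and every row that begins with MT-. The rule found 99 of 36601 genes. Of these, 83 were nuclear genes for subunits, 13 were the protein genes of the mitochondrial genome, and 3 were antisense or divergent transcripts named after a subunit gene (NDUFB2-AS1, NDUFV2-AS1 and NDUFA6-DT). The 3 transcripts were too rare in both groups of cells to be compared and are not counted further. The rule uses names and no measured value, but it was set with earlier results of these data known.

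Oxidative phosphorylation runs through a chain of protein complexes. Complex I takes electrons from NADH, complex III passes them from ubiquinol to cytochrome c, and complex IV hands them to oxygen. Each of these pumps protons across the membrane, and complex V, the ATP synthase, lets the protons back through a rotating ring to make ATP. Complexes I, III, IV and V are built from proteins of both genomes: the mitochondrial genome supplies a few hydrophobic core proteins, and the nucleus supplies all the others. Heart muscle depends on this pathway more than most tissues, and some complex IV subunits have a form made mainly in heart and skeletal muscle beside a form made in most cells.

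The cells came from 1 culture of HES2, an established line of human embryonic stem cells, taken through a differentiation labelled SANLPC, a name the series spells out as pacemaker cells that resemble those of the sinoatrial node. After dissociation the cells were stained with a DNA-barcoded antibody to CD34 (TotalSeq A0054) and sorted with DAPI as live single cells, not by their CD34. The series holds 2 libraries of that culture, 1 of polyadenylated RNA (10x Genomics 3' version 3) and 1 of the antibody tags, and no untreated or second culture. Each value in the table is a number of unique molecular identifiers (UMIs), that is, of captured transcript molecules, and levels are given in CPM, UMIs scaled to a fixed RNA total of 1000000.

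Of 14829 cell barcodes, 11211 had at least 1000 genes, at most 25% of their UMIs from MT- genes and at most 35000 RNA UMIs. The cells were split by TNNT2, which encodes cardiac troponin T. Cells at 2000 CPM or more of TNNT2 are called cardiomyocytes (5516 cells, median 16209 RNA UMIs per cell), cells under 1000 CPM are called other cells (5246 cells, median 17257), and 449 cells lay between. Within 10% of the 2000 CPM limit there were 172 cells, and within 10% of the 1000 CPM limit there were 165. The groups held 91958926 and 91364273 RNA UMIs in all, so the depth behind the sums was nearly equal. Since TNNT2 chose the groups, its own difference is not a result.

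Other markers mostly went with these names. The 9 further cardiomyocyte markers, among them MYL7 at 12343 CPM and MYH6 at 6772 CPM in cardiomyocytes, were found in other cells at 2.20% to 5.44% of their cardiomyocyte level, with a median of 3.05%. The pacemaker genes SHOX2 (522 against 17.9 CPM) and HCN4 (96.8 against 5.37 CPM) lay in the cardiomyocytes. TBX3 (193 against 77.3 CPM) and ISL1 (69.9 against 30.6 CPM) were higher there too. In other cells these 2 genes still stood at 40.2% and 43.8% of their cardiomyocyte level. The genes taken as markers of working cardiomyocytes were mixed. NKX2-5 (25.6 against 0.525 CPM), NPPA (452 against 11.1 CPM) and GJA5 (21.5 against 5.02 CPM) stood higher in cardiomyocytes. GJA1 (5.08 against 17.1 CPM), KCNA5 (16.5 against 29.5 CPM) and SLN (8.84 against 33.2 CPM) stood higher in other cells. Of the 3 ventricular genes, MYL2 (0.163 CPM) and MYH7 (3.93 CPM) were nearly missing in cardiomyocytes, while MYL3 was at 433 CPM there and 14 CPM in other cells. Other cells carried epithelial and mesenchymal markers, with KRT8 at 2535 CPM and COL3A1 at 3124 CPM. In cardiomyocytes KRT8 was at 511 CPM and COL3A1 at 331 CPM. The endothelial marker PECAM1 and the blood marker PTPRC were at or under 0.131 CPM in both groups. KDR, a further endothelial gene, was at 2.24 CPM in cardiomyocytes and 8.24 CPM in other cells, and the blood gene CD68 at 0.174 and 0.591 CPM. The smooth muscle genes were mixed: ACTA2 (2160 against 373 CPM), MYH11 (676 against 19.7 CPM) and CNN1 (265 against 38.4 CPM) stood higher in cardiomyocytes, and TAGLN (337 against 499 CPM) in other cells. Because there was 1 culture, the intervals given below (95%) cover counting error only, no p-value can be given, and a gene is called higher if its level was at least 25% above that of the other group and lower if it was at least 20% below (a ratio of 0.8 or less), provided that it reached 10 CPM in the group where it was higher.

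Transcripts of both genomes made up a larger part of the RNA of cardiomyocytes. The 83 nuclear subunit genes summed to 38318 CPM in cardiomyocytes and 17629 CPM in other cells, a ratio of 2.17 (2.17 to 2.18). The 13 mitochondrial genes summed to 122382 and 60739 CPM, a ratio of 2.01 (2.01 to 2.02). Together the subunits of both genomes took 16.1% of the RNA UMIs of cardiomyocytes and 7.84% of those of other cells. The median cell held 623 nuclear subunit UMIs among cardiomyocytes and 303 among other cells, at the nearly equal depth given above. These are shares of the captured RNA, and the amount of RNA in a cell was not measured.

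The difference ran through nearly every gene. Of the 83 nuclear genes, 77 reached 10 CPM, 74 of these were higher in cardiomyocytes, and 0 were lower. Over all 10031 genes that reached that level, 27.3% were higher and 39.6% were lower, and the median ratio was 0.92 against 2.16 for the nuclear subunits. The 3 nuclear genes between the limits were NDUFC2 at 1.246, just under the limit, NDUFA7 at 1.11 and COX7A2L at 1.05. All 13 mitochondrial genes were higher. The 6 nuclear genes under 10 CPM in both groups were COX4I2, COX6B2, COX7B2, COX8C, NDUFA4L2 and ATP5MGL.

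The measured direction also depended on how the totals were scaled, for all genes more than for these. Among genes called either way, 40.8% were higher in cardiomyocytes. With totals of non-mitochondrial UMIs that share was 48.1%, with the median ratio of all genes set to 1 it was 49.6%, and with MT- and 10 contractile and calcium-release genes left out of the totals it was 54.8%. Setting the median to 1 moved all genes by 0.13 on the log2 scale. The count of higher nuclear subunits was 75, 75 and 76 under the same 3 scalings, and 0 were lower under each.

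**Figure D1:**
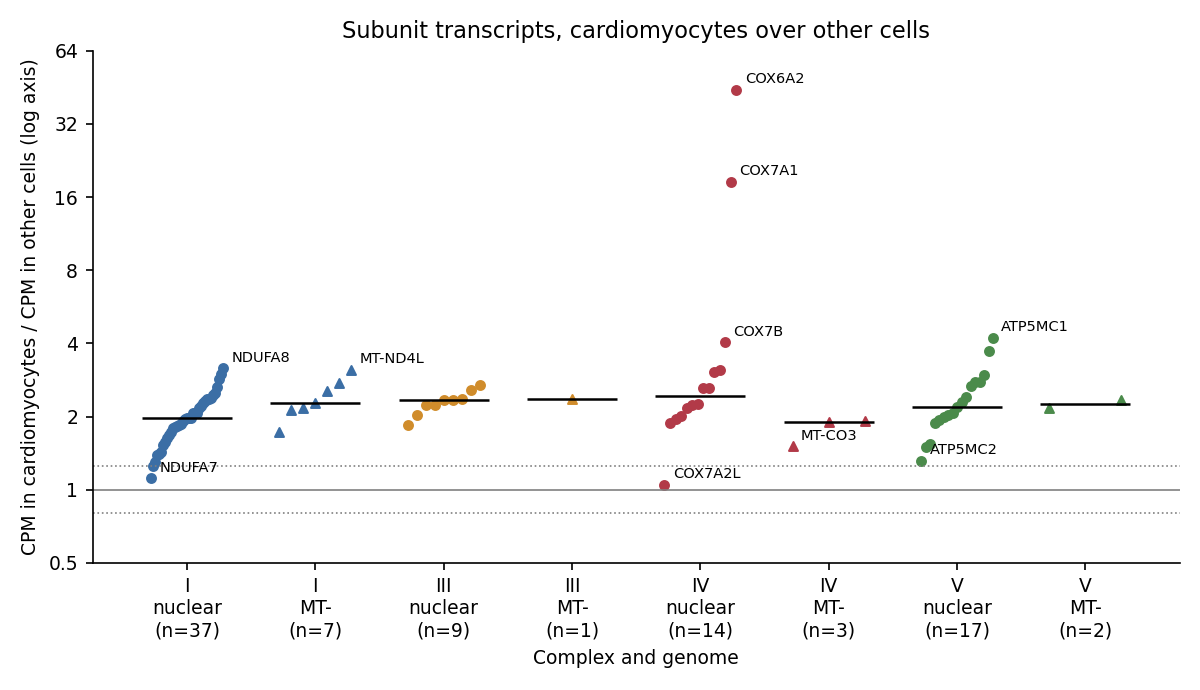
Ratio of CPM in cardiomyocytes to CPM in other cells (log axis) for each subunit gene that reached 10 CPM, by complex and genome, with circles for nuclear genes, triangles for MT- genes, black bars for medians, a solid line at a ratio of 1 and dotted lines at the limits for higher and lower. Nearly all points lie above the upper dotted line, with COX6A2 (44.3) and COX7A1 (18.5) far above and COX7A2L (1.05) near 1.

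Cell by cell, the nuclear subunits separated the groups more cleanly than the mitochondrial ones. Per cardiomyocyte the nuclear subunits had a median of 38029 CPM, with the middle 50% of cells from 32172 to 44380. Per other cell the median was 17480 CPM, with the middle 50% from 15561 to 19443. The nuclear level of 94.7% of the cardiomyocytes (94.1% to 95.3%, exact binomial) lay above the 95th percentile of other cells, 23260 CPM. The MT- share had a median of 11.8% in cardiomyocytes and 5.70% in other cells, and 47.4% of cardiomyocytes (46.1% to 48.7%) were above the 95th percentile of other cells, 12.1%. These are cells of 1 library and not replicates.

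The filter on mitochondrial reads bears on the MT- values directly. The 25% limit alone removed 325 cardiomyocytes, 187 other cells and 223 of the cells between. Without that limit the mitochondrial ratio was 2.01, and with a limit of 15% it was 1.79. In the 1395 cardiomyocytes and 1868 other cells whose MT- share was 6 to 10%, a choice made after seeing the data that holds the share nearly equal, the nuclear ratio was 2.0 and the mitochondrial ratio 1.15.

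**Figure D2:**
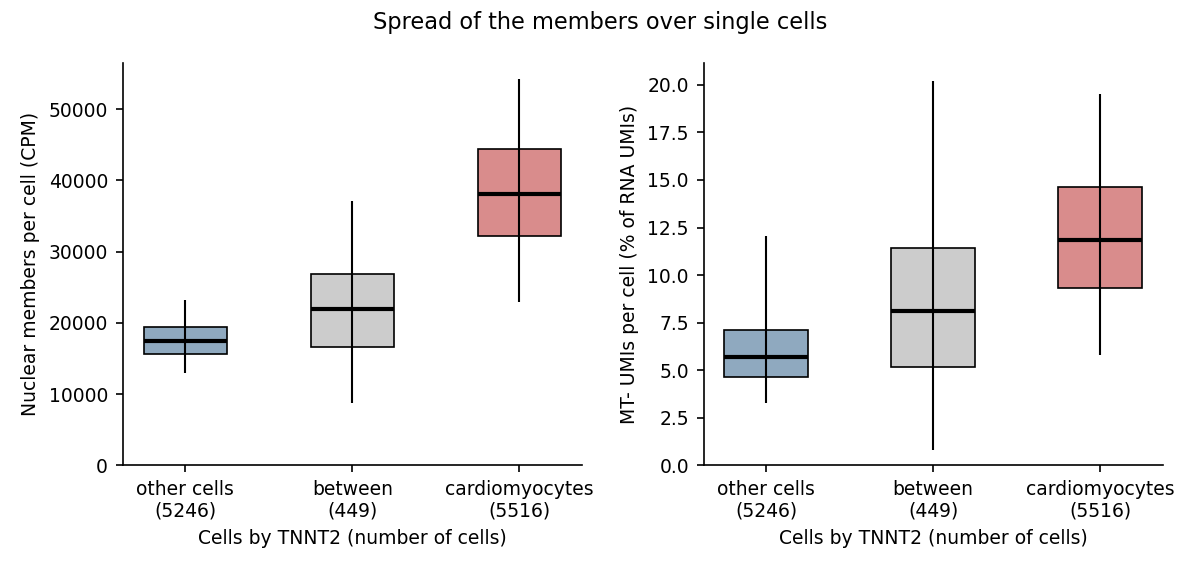
Summed level of the nuclear subunit genes per cell (CPM, left) and MT- share of RNA UMIs per cell (percent, right) in other cells, cells between the TNNT2 limits and cardiomyocytes, with boxes over the middle 50% of cells, a line at the median and whiskers from the 5th to the 95th percentile. The nuclear boxes of cardiomyocytes (median 38029) and other cells (17480) are apart, as are the MT- boxes (medians 11.8% and 5.70%), and the whiskers overlap in both panels, by more for the MT- share.

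Complex I had the smallest ratio of the nuclear parts. Its 37 nuclear genes summed to 11838 CPM in cardiomyocytes and 6258 CPM in other cells, a ratio of 1.89 (1.89 to 1.90), and 35 of the 37 were higher. Among the genes with the highest ratios were NDUFA8 (294 against 93.3 CPM, 3.15), an accessory subunit on the intermembrane-space side, NDUFB1 (338 against 113 CPM, 2.98), an accessory subunit of the membrane arm, and the core subunit NDUFS1 (174 against 61.3 CPM, 2.84), which carries iron-sulfur clusters. The 4 lowest were all accessory subunits. They were NDUFA7 (123 against 110 CPM, 1.11), NDUFC2 (398 against 319 CPM, 1.246), NDUFS4 (153 against 117 CPM, 1.30), an assembly-stabilising subunit whose loss causes Leigh syndrome, and NDUFB11 (391 against 283 CPM, 1.38), encoded on the X chromosome. The range within complex I, from 1.11 to 3.15, was wider than the counting interval of any gene named here.

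The start regions of the nuclear genes were read in RefSeq (GRCh38.p14), in windows from 250 bases before to 50 bases after the annotated start, which were present for 67 of the 83 genes. Sites were searched on both strands as letters for 3 factors long tied to respiratory genes: GCNTGCGC for NRF1, CCGGAAG for ETS factors such as the GABP complex, and AANATGGCG for YY1. The NRF1 letters were in the windows of 28 of the 67 genes (41.8%), against 26.9% of 7528 genes that reached 10 CPM over all cells and 12% of all 35116 windows. Unlike the 7528, the 67 were not limited to that level, and COX6B2 and COX8C, both under it, were among the 28. NRF1 itself was under 10 CPM, at 6.14 CPM in cardiomyocytes and 6.49 CPM in other cells. The ETS letters were in 19 (28.4%, against 23.8% and 10.3%), and the YY1 letters in 16 (23.9%, against 9.63% and 3.19%). For muscle factors, the MEF2 motif was in 3 genes (4.48%, against 2.54% and 2.99%) and the E-box CAGCTG in 15 (22.4%, against 22.0% and 17.9%). A match is a run of letters and was not measured as a bound site. NDUFA8, at the top of complex I, is shown because its window held 4 NRF1 matches, some of them overlapping, and 1 E-box. Its window is on the minus strand at chr9:122159750-122160029, printed 5′ to 3′ up to 30 bases after the start, with the matches in capitals.
NDUFA8: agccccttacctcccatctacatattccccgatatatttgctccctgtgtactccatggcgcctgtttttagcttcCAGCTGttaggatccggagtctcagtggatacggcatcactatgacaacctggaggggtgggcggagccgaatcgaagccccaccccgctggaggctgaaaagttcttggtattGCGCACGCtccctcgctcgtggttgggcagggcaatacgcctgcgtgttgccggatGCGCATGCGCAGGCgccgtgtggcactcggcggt

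Complex III was higher as a whole. All 9 of its nuclear genes were higher, and they summed to 4116 CPM in cardiomyocytes and 1835 CPM in other cells, a ratio of 2.24 (2.23 to 2.26). The core protein UQCRC2 had the highest ratio (271 against 100 CPM, 2.70), ahead of UQCRHL (13.3 against 5.20 CPM, 2.56), UQCRH (772 against 328 CPM, 2.35), the hinge protein that contacts cytochrome c1, and UQCRB (860 against 366 CPM, 2.35), near the quinone site. The lowest were the Rieske iron-sulfur protein UQCRFS1 (401 against 216 CPM, 1.85) and the small subunits UQCRQ (366 against 180 CPM, 2.03), UQCR10 (674 against 303 CPM, 2.22) and UQCR11 (535 against 239 CPM, 2.24). Even the lowest of the 9 lay well above the limit. UQCRHL is an intronless copy of UQCRH, and it made up 1.70% of the UMIs of the pair in cardiomyocytes and 1.56% in other cells, so reads of one may have been counted for the other.

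Complex IV held both the largest and the smallest ratios of the set. Of its 19 nuclear genes, NDUFA4 counted among them as it is a subunit of this complex, 14 reached 10 CPM and 13 were higher. They summed to 10628 and 4386 CPM, a ratio of 2.42 (2.41 to 2.43). The 4 highest were COX6A2 (44.3), COX7A1 (18.5), COX7B (834 against 206 CPM, 4.04) and COX5A (760 against 244 CPM, 3.11). The 4 lowest were COX7A2L (190 against 181 CPM, 1.05), a relative of COX7A2 that joins complex III to complex IV, COX7A2 (548 against 292 CPM, 1.88), COX7C (1169 against 598 CPM, 1.95) and COX6A1 (799 against 399 CPM, 2.0). The 2 genes at the top are muscle forms, and COX7A2 and COX6A1 near the bottom are their general counterparts. COX4I1, the general form of the first nuclear subunit, stood at 1371 and 631 CPM (2.17), and NDUFA4 at 1728 and 662 CPM (2.61).

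COX6A2 and COX6A1 encode the muscle and the general form of subunit VIa. COX6A2 (chr16:31427731-31428360) had 2049 UMIs in cardiomyocytes, or 22.3 CPM (21.3 to 23.3), and 46 UMIs in other cells, or 0.503 CPM (0.369 to 0.672), a ratio of 44.3 (33.1 to 60.6). COX6A1 (chr12:120438113-120440730) remained the main form by count in both groups. COX6A2 made up 2.71% of the UMIs of the pair in cardiomyocytes (2.60% to 2.83%, exact binomial) and 0.126% in other cells (0.0923% to 0.168%). The count ratio of the pair was 22.1 times as high in cardiomyocytes (16.5 to 29.6, a Wald interval on the log scale). Counts of 3' ends are not divided by transcript length, and capture can differ between genes, so these shares are shares of UMIs and not of protein.

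The start windows of the pair are shown because the 2 forms differed in what they held. The COX6A2 window (minus strand, chr16:31428331-31428610) had 1 MEF2 match and 1 E-box and no match to the NRF1, ETS or YY1 letters. The COX6A1 window (plus strand, chr12:120437863-120438142) had 2 NRF1 matches, 1 ETS match and 1 YY1 match, and neither muscle motif. Both are printed 5′ to 3′ to 30 bases after the start, with matches in capitals. No window was present for COX7A1.
COX6A2: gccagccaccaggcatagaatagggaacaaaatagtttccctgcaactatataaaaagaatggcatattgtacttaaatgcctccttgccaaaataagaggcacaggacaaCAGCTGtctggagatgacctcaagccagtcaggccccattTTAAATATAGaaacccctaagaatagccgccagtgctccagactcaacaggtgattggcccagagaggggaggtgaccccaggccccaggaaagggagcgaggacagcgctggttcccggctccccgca
COX6A1: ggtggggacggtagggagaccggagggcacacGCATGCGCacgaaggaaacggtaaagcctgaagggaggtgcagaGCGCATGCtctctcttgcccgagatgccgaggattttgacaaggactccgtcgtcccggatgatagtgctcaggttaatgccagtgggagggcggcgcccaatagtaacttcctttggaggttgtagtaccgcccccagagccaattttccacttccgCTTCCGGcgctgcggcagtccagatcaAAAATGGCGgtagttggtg

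COX7A1 and COX7A2 are the muscle and the general form of subunit VIIa. COX7A1 (chr19:36150922-36152447) had 24310 UMIs in cardiomyocytes, or 264 CPM (261 to 268), and 1305 in other cells, or 14.3 CPM (13.5 to 15.1), a ratio of 18.5 (17.5 to 19.6). It made up 32.5% of the UMIs of the pair with COX7A2 in cardiomyocytes (32.2% to 32.9%) and 4.66% in other cells (4.42% to 4.91%). The count ratio of this pair was 9.86 times as high in cardiomyocytes (9.31 to 10.4). By count the muscle form thus took a larger share of the VIIa pair (32.5%) than of the VIa pair (2.71%) in the same cells. COX7A2L made up 25.7% of its UMIs with COX7A2 in cardiomyocytes and 38.3% in other cells.

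The low levels of the muscle forms in other cells lay in the range of the cardiomyocyte markers there. COX6A2 in other cells was 2.26% of its cardiomyocyte level and COX7A1 was 5.40%, within the 2.20% to 5.44% spanned by the 9 cardiomyocyte markers. With each cell thinned to 5000 UMIs, leaving out 289 cardiomyocytes and 227 other cells that were shallower, at least 1 COX6A2 UMI was seen in 9.51% of cardiomyocytes and 0.219% of other cells (21.8% and 0.858% without thinning). At least 1 COX7A1 UMI was seen in 61.8% and 6.63% (82.4% and 17.8% without thinning). MYL7, a gene of cardiomyocytes, was seen in 99.96% of thinned cardiomyocytes and still in 70.0% of thinned other cells. COX7A1 differed between ranges of other cells in which MYL7 hardly did: it was 33.0 CPM where COL1A1 was high and 9.77 CPM where EPCAM was high, with MYL7 at 295 and 267 CPM. Where the UMIs of either muscle form in other cells came from was not tested.

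The remaining tissue-restricted forms were near 0. COX4I2, a lung form tied to the response to oxygen, had 0 UMIs in cardiomyocytes, which allows up to 0.0326 CPM (3 UMIs), and 8 UMIs in other cells. The forms known from testis were as scarce. COX6B2 had 16 UMIs in cardiomyocytes and 51 in other cells, COX8C had 33 and 15, and COX7B2 had 0 in both, against 71202, 59295 and 76708 UMIs in cardiomyocytes for COX6B1 (774 against 297 CPM), COX8A (645 against 287 CPM) and COX7B. NDUFA4L2, a hypoxia-induced relative of NDUFA4, had 16 and 36 UMIs. Of the restricted complex IV forms, only the 2 muscle forms thus reached 10 CPM in these cells.

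Complex V was second to complex IV in its nuclear ratio. Of its 18 nuclear genes 17 reached 10 CPM, and all 17 were higher, with sums of 11736 and 5150 CPM and a ratio of 2.28 (2.27 to 2.29). The highest were ATP5MC1 (663 against 157 CPM, 4.23), ATP5F1B (1039 against 280 CPM, 3.71), which encodes the catalytic beta subunit, ATP5MC3 (1597 against 541 CPM, 2.95) and ATP5F1A (855 against 309 CPM, 2.77), the alpha subunit. The lowest were ATP5MC2 (652 against 496 CPM, 1.32), the epsilon subunit ATP5F1E (797 against 530 CPM, 1.5), and the membrane subunits ATP5MF (301 against 195 CPM, 1.55) and ATP5MG (752 against 400 CPM, 1.88). ATP5MGL, a copy of ATP5MG, had 87 and 75 UMIs.

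ATP5MC1, ATP5MC2 and ATP5MC3 encode the same mature c subunit of the rotor ring with different import sequences, and the 3 genes spanned the whole range of complex V. ATP5MC1 made up 50.4% of its UMIs with ATP5MC2 in cardiomyocytes (50.1% to 50.7%) and 24.0% in other cells (23.7% to 24.4%), a count ratio 3.21 times as high (3.14 to 3.28). Of its UMIs with ATP5MC3 it made up 29.3% and 22.5%, 1.43 times as high (1.40 to 1.46). The gene that differed most was therefore the rarest c-subunit gene in other cells, and ATP5MC3 was the most counted in both groups. The ATP5MC1 window (plus strand, chr17:48892537-48892816), shown for the highest ratio among genes with no muscle-form name, held 1 E-box in capitals and no match to the other 4 motifs.
ATP5MC1: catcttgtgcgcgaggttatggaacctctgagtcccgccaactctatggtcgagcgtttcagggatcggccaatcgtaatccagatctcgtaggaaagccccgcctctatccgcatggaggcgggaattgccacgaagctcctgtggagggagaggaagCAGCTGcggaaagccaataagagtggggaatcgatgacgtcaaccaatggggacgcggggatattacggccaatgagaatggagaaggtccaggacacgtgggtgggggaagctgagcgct

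Within the mitochondrial genome the difference was uneven. The genes of complex I summed to a ratio of 2.38, MT-CYB of complex III had 2.36, the 2 ATP synthase genes 2.17 and the 3 complex IV genes 1.78. This order is not that of the nuclear genes, where complex IV was highest (2.42) and complex I lowest (1.89). Among the complex I genes the ratios were 1.73 for MT-ND6, 2.14 for MT-ND1, 2.17 for MT-ND3, 2.28 for MT-ND2, 2.54 for MT-ND4, 2.76 for MT-ND5 and 3.12 for MT-ND4L. MT-ND6 is the only protein gene on the light strand, and MT-ND4L shares 1 transcript with MT-ND4, as MT-ATP8 (2.34) does with MT-ATP6 (2.17). In complex IV the ratios were 1.51 for MT-CO3, 1.90 for MT-CO2 and 1.91 for MT-CO1.

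The same pattern can be read as the make-up of the MT- UMIs, which a change in their total leaves untouched. MT-CO3 was 13.5% of the MT- UMIs of cardiomyocytes and 18% of those of other cells. All 3 complex IV genes together were 48.6% and 55.1%, and the complex I genes were 24.4% and 20.7%. In the cells with an MT- share of 6 to 10%, MT-CO3 was 14% and 18.1%, and complex IV 49.0% and 55.3%. MT-CO3 thus kept a lower weight in cardiomyocytes, with a smaller gap, where the groups had a like MT- share. There the CPM of MT-CO3 (0.89) and MT-ND6 (0.87) were below those of other cells. The make-up also differed among other cells. In those with 1000 CPM or more of COL1A1, complex IV was 47.4%, complex I 24.8% and MT-CO3 15.3%. In those with 200 CPM or more of EPCAM and less COL1A1, these were 56.7%, 19.8% and 18.6%. The lower weight of complex IV was therefore not particular to cardiomyocytes.

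**Figure D3:**
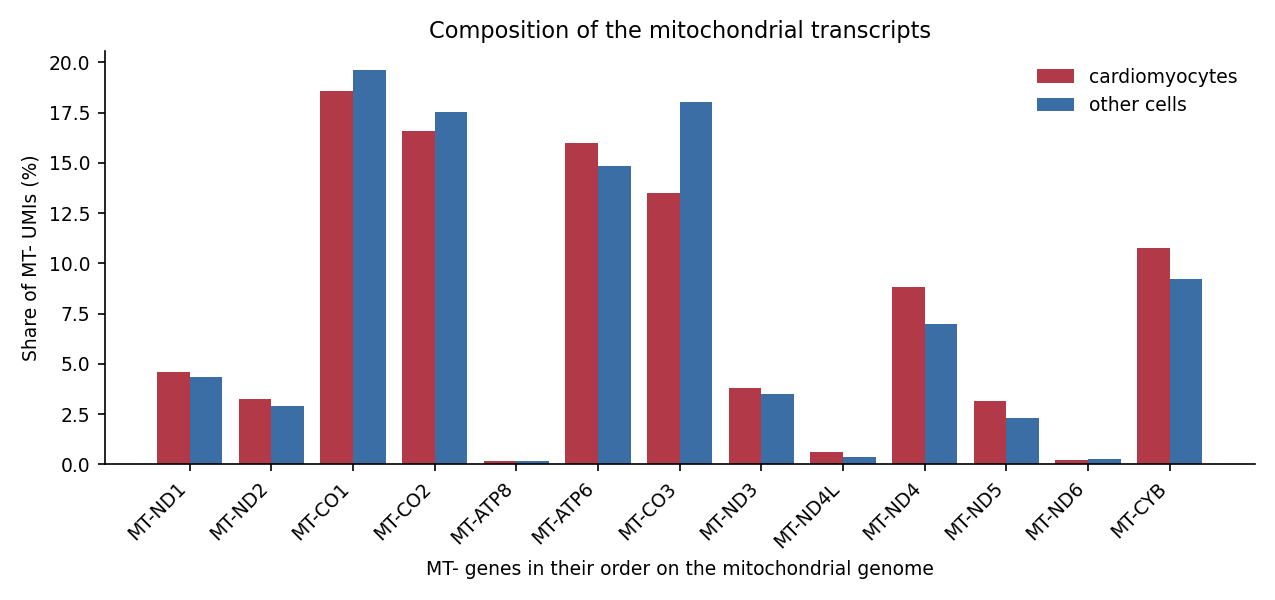
Share of each MT- gene (percent of all MT- UMIs, linear axis from 0) in cardiomyocytes (red) and other cells (blue), with the genes in their order on the mitochondrial genome. MT-CO3 stands lower in cardiomyocytes (13.5% against 18%), and MT-ND4 and MT-CYB stand higher.

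The subunits followed TNNT2 across the cells. In other cells the nuclear sum changed little with TNNT2, at 17285 CPM under 250 CPM of TNNT2, 17632 from 250 to 500 and 18528 from 500 to 1000. It was 24103 CPM in the cells between the limits, and then 30440, 37521, 43796 and 48395 CPM in cardiomyocytes of 2000 to 4000, 4000 to 8000, 8000 to 12000 and 12000 CPM or more of TNNT2. The MT- share went from 5.77% in the lowest range to 13.3% at 8000 to 12000 CPM and was 12.9% above that. So the nuclear sum went up at each step, while the MT- share did not in the last one. Within cardiomyocytes the nuclear level (of non-mitochondrial UMIs) had a Spearman correlation of 0.59 with TNNT2, 0.43 with the MT- share and -0.023 with depth over 5516 cells. In 5246 other cells these were 0.10, 0.018 and -0.087. The points are cells of 1 library, whose free RNA was not measured, and the values are a description.

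The muscle forms had the steepest course. COX6A2 was at 0.424, 0.584 and 0.524 CPM in the 3 ranges of other cells, at 4.50 CPM between the limits, and at 11.6, 19.4, 31.1 and 47.4 CPM in the 4 ranges of cardiomyocytes. COX7A1 went from 14.4, 11.6 and 20.3 CPM through 104 CPM to 163, 254, 339 and 371 CPM. COX7A2L stayed between 175 and 209 CPM in all 8 ranges. In the VIa pair the share of COX6A2 was 1.65% at 2000 to 4000 CPM of TNNT2 and 4.79% at 12000 CPM or more, whereas the share of COX7A1 in its pair was 35.9% at 8000 to 12000 CPM and 35.7% above.

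**Figure D4:**
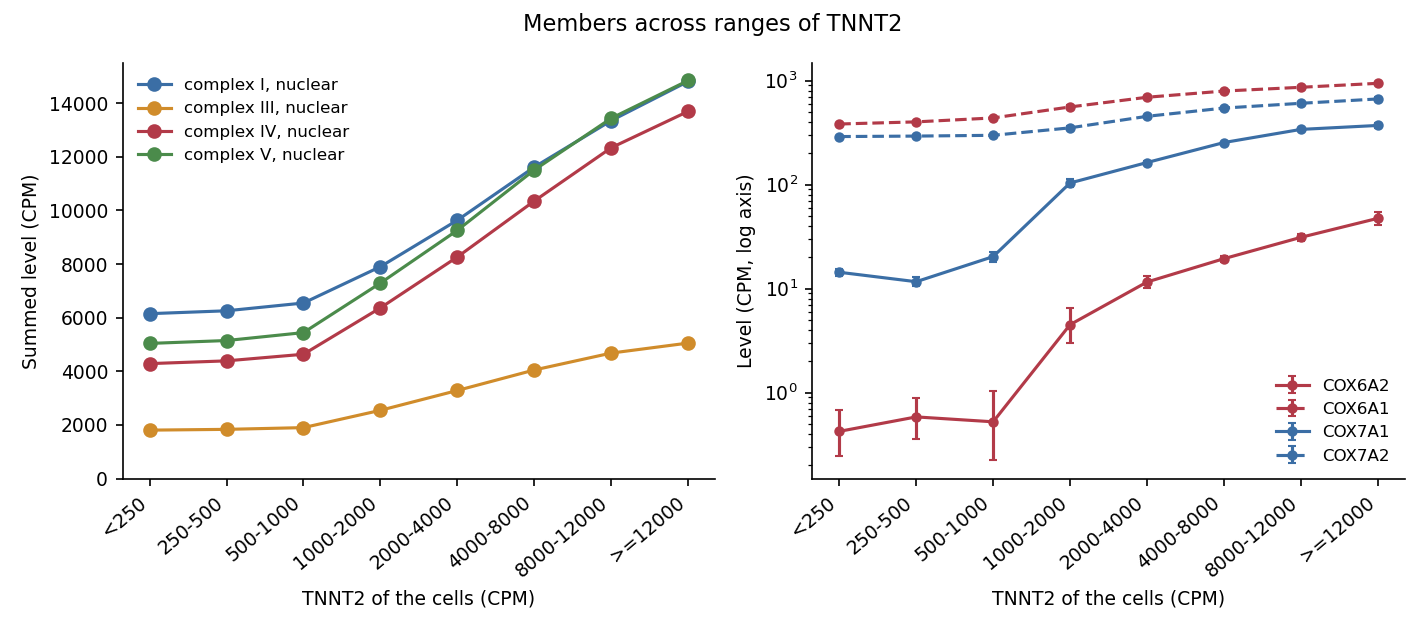
Summed CPM of the nuclear genes of each complex (left, linear axis from 0) and CPM of the paired forms of subunits VIa and VIIa (right, log axis, bars are 95% Poisson intervals) across 8 ranges of TNNT2. All 4 complexes climb from the range of 1000 to 2000 CPM on, and COX6A2 and COX7A1 climb more steeply than COX6A1 and COX7A2 (dashed).

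Between cardiomyocytes of 8000 CPM or more of TNNT2 (1814 cells) and of 2000 to 4000 CPM (1053 cells), 71 of 77 nuclear subunits were higher and 0 lower, where 11.1% of all genes were higher and 35.3% lower. The nuclear sum had a ratio of 1.46 and the MT- sum 1.24, with 8 of 13 MT- genes higher. After COX6A2 (2.89) and COX7A1 (2.11), the highest were ATP5MC1 (1.72) and COX5B (1.66), a zinc-binding subunit of complex IV. Without the cells that Scrublet called doublets, 774 cells were left in the low range. There 65 nuclear subunits and 1 MT- gene were higher, where 9.84% of all genes were higher and 32.3% lower. The nuclear ratio was 1.38 and the MT- ratio 1.13. Setting the median ratio of all genes to 1 moved all genes by 0.17 on the log2 scale. All 77 and all 13 were then higher, where 20.9% of all genes were higher and 23% lower. The count of higher MT- genes thus depended on these choices, between 1 and 13, and that of the nuclear subunits little. In RNA-poor cardiomyocytes the level was lower too: the 289 cardiomyocytes under 5000 UMIs had 23848 CPM of nuclear subunits and 7.92% MT- UMIs, while the deeper ranges had 36680 to 40594 CPM.

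Cardiomyocytes rich in cell cycle transcripts had less of the nuclear subunits. The ranges compared from here on were set after seeing the data, and they are ranges of a measure and not cell types. The 712 cardiomyocytes with 1000 CPM or more of 6 cell cycle genes had 31732 CPM of nuclear subunits, and the 4250 with under 200 CPM had 39899 CPM, a ratio of 0.80. Of the 77 genes, 38 were lower and 0 higher, where 14.1% of all genes were lower and 21.4% higher. COX6A2 (13.6 against 24.8 CPM, 0.55), COX7A1 (172 against 286 CPM, 0.60), ATP5MC1 (475 against 705 CPM, 0.67) and ATP5F1D (577 against 852 CPM, 0.68), the delta subunit of the ATP synthase, were the lowest. TNNT2 differed as well, at 4419 and 7331 CPM. In cells of 4000 to 8000 CPM of TNNT2 (374 and 1958 cells) the nuclear ratio was 0.87, with COX6A2 at 0.69 and COX7A1 at 0.76. There 11 of the 77 nuclear members were lower and 0 higher, where 18.4% of all genes were lower and 17% higher, so members were called lower no more often than genes in general. The MT- sum had a ratio of 0.88 over all cells compared. Within 10% of the upper cell cycle limit there were 49 cells.

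Between cardiomyocytes with and without NKX2-5, COX6A2 stood apart from the other members. In 447 cardiomyocytes with 100 CPM or more of NKX2-5, a transcription factor that sinoatrial pacemaker cells keep low, COX6A2 was at 69.7 CPM (512 UMIs). In the 4740 with none it was at 17.4 CPM (1357 UMIs), a ratio of 4.0 (3.61 to 4.43). It was the single member called in either direction, where 7.17% of all genes were higher and 7.88% lower, and the nuclear sum had a ratio of 0.997 (38261 and 38375 CPM). COX7A1 did not follow, at 235 and 270 CPM (0.87). COX6A2 made up 9.04% of the VIa pair in the NKX2-5 range (8.31% to 9.82%) and 2.11% in cells with none (2.0% to 2.22%). In cells of 4000 to 8000 CPM of TNNT2 the COX6A2 ratio was 3.68 (3.11 to 4.34), and without Scrublet doublets it was 3.88. Within 10% of the NKX2-5 limit there were 42 cells. NKX2-5 had 2356 UMIs over all 5516 cardiomyocytes, so cells with none can include cells in which it was missed.

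By TBX3 the same gene went the other way. TBX3 encodes a repressor known from pacemaker cells, and the other cells carried it too (77.3 CPM). In 1758 cardiomyocytes with 200 CPM or more of TBX3, COX6A2 was at 18.5 CPM, and in 1898 with none it was at 25.4 CPM, a ratio of 0.73 (0.65 to 0.81). The other member called was UQCRHL (11.5 against 15 CPM, 0.76), where 6.71% of all genes were higher and 7.28% lower. The nuclear sum had a ratio of 0.93 and the MT- sum 0.91. Without Scrublet doublets, COX6A2 (0.71) was the single member called, where 6.79% of all genes were higher and 8.46% lower. Within 10% of the TBX3 limit there were 246 cells, and cells with none can likewise include cells in which it was missed.

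By CD34 tag the members hardly differed. The 1380 cardiomyocytes in the top 25% of tag counts (279 or more) had 37477 CPM of nuclear subunits, and the 1403 in the bottom 25% (45 or fewer) had 37703 CPM. The MT- ratio was 0.93. COX6A2 was lower in the top 25% (17.8 against 28.2 CPM, 0.63, interval 0.55 to 0.71), the single member called, where 5.25% of all genes were higher and 7.36% lower, and COX7A1 was at 256 and 251 CPM. Cells in the top 25% were deeper, with a median of 17064 RNA UMIs against 14292, and 161 and 439 cells lay within 10% of the upper and the lower limit.

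**Figure D5:**
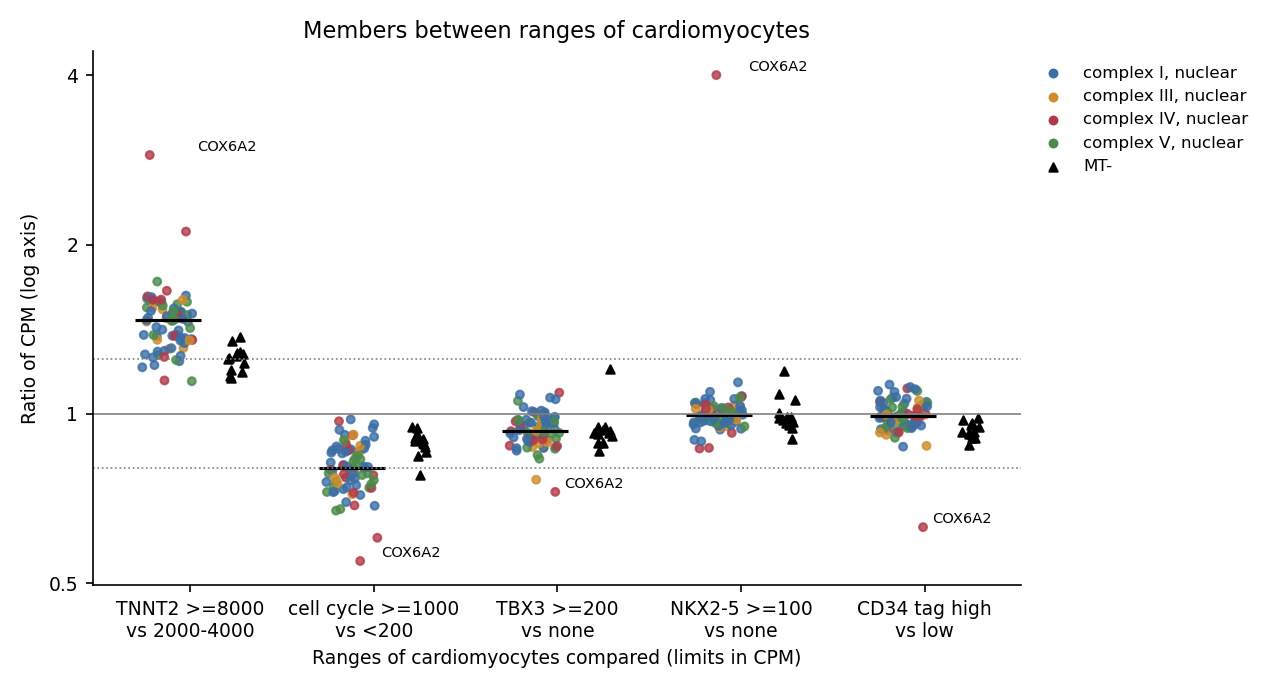
Ratio of CPM (log axis) of each subunit gene of 10 CPM or more in 5 comparisons between ranges of cardiomyocytes, with nuclear genes coloured by complex, MT- genes as black triangles, black bars at the nuclear medians and dotted lines at the limits for higher and lower. The nuclear genes move together for TNNT2 (sum 1.46) and the cell cycle (0.80) and stay near 1 for TBX3, NKX2-5 and the CD34 tag, with COX6A2 farthest from 1 in each. Its interval holds UQCRHL (0.76) for TBX3 and COX7A1 (0.60) for the cell cycle.

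The other cells were not uniform in these genes. Among them, 781 cells had 1000 CPM or more of COL1A1, a mesenchymal collagen, and 4121 had 200 CPM or more of the epithelial gene EPCAM and less COL1A1, limits set after seeing the data with 56 and 30 cells within 10% of them. The nuclear subunits summed to 17718 and 17435 CPM, a ratio of 1.02. Of 75 nuclear members at 10 CPM, 4 were higher in the COL1A1 range, where 25.5% of all genes were higher, and 3 were lower, where 30.8% were. With the median ratio set to 1 these counts were 8 and 2, where 29% of all genes were higher and 26.8% lower. Without Scrublet doublets they were 6 and 4, where 26.4% of all genes were higher and 31.3% lower. COX7A1 was at 33.0 CPM in the COL1A1 range and 9.77 CPM in the EPCAM range (3.37, 3.0 to 3.79). The cardiomyocyte markers MYL7 (295 and 267 CPM) and MYH6 (149 and 144 CPM) were nearly level. COX6A2 had 5 and 37 UMIs (0.347 and 0.514 CPM). Where the COX7A1 UMIs in these ranges came from was not tested. COX7A1 was 10.6% of its pair with COX7A2 in the COL1A1 range and 3.20% in the EPCAM range. The other nuclear genes called were NDUFA12 (1.42), UQCRQ (1.30) and UQCRH (1.28) as higher and NDUFA7 (0.57), NDUFC1 (0.72) and NDUFA5 (0.79) as lower, all but UQCRQ and UQCRH of complex I.

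The mitochondrial transcripts differed in make-up between the same ranges, at an MT- share of 5.49% and 6.14%. MT-CO1 was 15.7% of the MT- UMIs in the COL1A1 range and 20.3% in the EPCAM range, and MT-CO3 was 15.3% and 18.6%. In CPM these 2 genes were called lower in the COL1A1 range (0.69 and 0.73), and MT-ND2 (1.39) and MT-ND5 (1.32) were called higher. The 3 complex IV genes together were 47.4% and 56.7%, against 48.6% in cardiomyocytes. In other cells with 1000 CPM or more of cell cycle genes (1008 cells) against those under 200 CPM (3565 cells), the nuclear ratio was 0.95, with COX8A higher (1.30) and COX7A1 (0.58), UQCRB (0.78), NDUFB5 (0.78) and ATP5MC2 (0.78) lower, where 16.9% of all genes were higher and 16.6% lower.

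Genes that work with the subunits were in part higher as well, where 27.3% of all genes were higher and 39.6% lower. Complex II, which the rule leaves out and which is wholly nuclear, had 3 of 4 genes higher, with SDHA at 3.02. Cytochrome c (CYCS, 608 against 144 CPM, 4.24) and cytochrome c1 of complex III (CYC1, 285 against 98.7 CPM, 2.89) were higher, as was COQ10A (3.18), while COQ10B, its relative, was lower (0.75). Of the enzymes of the citric acid cycle and pyruvate dehydrogenase, 15 of 16 were higher, among them PDHA1 (4.70) and IDH3A (4.58), and SUCLG2 was lower (0.41). Of 10 measured genes of fatty acid oxidation, 8 were higher, led by ETFDH (3.13), HADHB (3.07) and ETFB (3.05), which hand electrons to ubiquinone or break down long acyl chains. Of 7 carriers and pores, 6 were higher, and SLC25A4, the ADP/ATP carrier of heart and muscle, stood at 956 and 111 CPM (8.60), against 2.37 for SLC25A5 and 1.18 for SLC25A6.

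Assembly and synthesis factors differed less, beside the same 27.3% of all genes higher and 39.6% lower. Of the assembly factors, 11 of 13 for complex I were higher (ECSIT 2.33), 8 of 11 for complexes III and V (LYRM7 2.96) and 8 of 18 for complex IV (COX20 2.54), with SCO2 lower (0.72). Of 77 measured proteins of the mitochondrial ribosome, 26 were higher, a share close to the 27.3% of all genes. Only 2 were lower, MRPL17 (0.51) and MRPL51 (0.78), where 39.6% of all genes were lower. The median ratio of the 77 was 1.14, against 0.92 for all genes. With the median ratio of all genes set to 1, 38 of the 77 were higher and 1 lower. Over all 10031 genes, 3270 were then higher and 3325 lower. Of 9 measured genes for mitochondrial RNA maturation, 2 were higher, FASTKD1 (2.12) and SLIRP (1.37), and FASTKD5 was lower (0.67). So the sums of subunits and fuel enzymes stood further above 1 than those of the ribosome (1.247) or of RNA maturation (1.15).

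Of the 12 measured regulators, 6 were higher and 6 lower, where 27.3% of all genes were higher and 39.6% lower. Those higher were ESRRG (60.1 against 2.07 CPM, 29.0), PPARGC1A (45.3 against 2.11 CPM, 21.4), PPARGC1B (15 against 2.85 CPM, 5.26) and ESRRA (64.1 against 17.4 CPM, 3.68), nuclear receptors and their coactivators that drive mitochondrial genes in heart. With smaller ratios, TFB1M (1.29) and POLRMT (1.26) were higher too. Those lower were TFB2M (0.57), TFAM (0.62), the packaging protein of mitochondrial DNA, PPRC1 (0.70), GABPB1 (0.72), GABPA (0.73) and YY1 (0.80). The lower ones kept a ratio under 1 in all 13 alternatives run, and TFB2M, TFAM and PPRC1 also stayed at 0.8 or less, but YY1 did so in 6 of the 13, GABPB1 in 10 and GABPA in 11. POLRMT kept its call as higher in 10 of the 13 and TFB1M in 12. With MT- and contractile genes left out of the totals, 6 of the 12 regulators were higher and 3 lower. Of all 10457 genes measured there, 3780 were higher and 3112 lower. In cells of 6 to 10% mitochondrial UMIs, 4 regulators were higher and 3 lower. Of all 10008 genes measured there, 2911 were higher and 3352 lower.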

How the data were processed

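The deposited table holds counts of unique molecular identifiers per gene and cell barcode, made by the authors with Cell Ranger 6.1.2 on GRCh38, per the submitters' processing notes; the gene annotation is not given in the sources used here. Deposited feature and barcode lists give the names, and a second kind of row in the same table holds the CD34 tag counts (2773855 in all, against 239181462 RNA UMIs). Reads that fit several near-identical genes (UQCRH and UQCRHL, ATP5MG and ATP5MGL, processed pseudogenes) or overlapping ones (MT-ATP8 and MT-ATP6, MT-ND4L and MT-ND4) may be missing or misplaced.

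Counts were summed over the cells of each group and divided by the group's RNA total (Python 3.11.15, numpy 2.4.6, scipy 1.17.1, pandas 2.3.3, matplotlib 3.10.9), with exact Poisson, exact conditional binomial (ratios) and exact binomial (shares) 95% intervals; the computation was tested on simulated data. The cell limits removed 1975 barcodes under 1000 genes, 1207 over 25% MT- and 908 over 35000 UMIs, some for more than 1 reason. Doublets were treated by the upper UMI limit. As an alternative, Scrublet in scanpy 1.11.5 called 1291 of 12119 scored barcodes (10.7%). No replicate existed, so no test was made.

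Members, lists and ranges were chosen with earlier results of these data known. Named were all MT- genes, all members of isoform pairs, the 4 highest and 4 lowest nuclear ratios per complex at 10 CPM or more, and, of each other list, up to 4 genes at either end past the limits. Some genes this rule names are not reported here. Further genes named were chosen after their values were seen. RefSeq coordinates were found for 98 of the 99 members. The alternatives were other totals, per-cell means and other limits on mitochondrial share, depth, TNNT2, the level floor and the fold. Doublets were also left out, as were cells at 200 CPM or more of the 6 cell cycle genes.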

Additional observations from a re-analysis of the deposited data

How the results depend on the processing

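The nuclear ratio of 2.17 and the mitochondrial ratio of 2.01 kept their direction in all 13 alternatives that can change them, and both often moved past their counting intervals. They were 2.33 and 2.16 over non-mitochondrial UMIs and 2.37 and 2.20 with the median ratio set to 1. As means of per-cell CPM they were 2.16 and 1.90. With a mitochondrial limit of 15% they were 2.12 and 1.79, with none 2.15 and 2.01, and with no upper UMI limit 2.10 and 1.94. They were 2.25 and 2.11 without Scrublet doublets and 2.31 and 2.12 with TNNT2 limits of 4000 and 500 CPM. In cells of 10000 to 20000 UMIs they were 2.22 and 2.01. In cells under 200 CPM of the 6 cell cycle genes they were 2.24 and 2.05. The other 3 were chosen after seeing the data: 2.47 and 2.29 with MT- and contractile genes out of the total, 2.18 and 2.03 without cells under 5000 UMIs, and 2.003 and 1.15 in cells of 6 to 10% mitochondrial UMIs. In those last cells, where the share is held nearly equal by construction, MT-CO3 (0.892), MT-ND6 (0.866) and, below 10 CPM, COX8C (0.958) reversed and so did COX6B2 (1.17).

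The COX7A1 to COX7A2 ratio of 9.86 was 9.10 as a mean of per-cell CPM, 10.5 without Scrublet doublets, 11.3 with TNNT2 limits of 4000 and 500 CPM and 8.56 at 6 to 10% mitochondrial UMIs, and the COX6A2 to COX6A1 ratio of 22.1 was 31.6 in the last. The count of higher nuclear subunits was 74 to 76 in these settings. It was 75 with a floor of 10 counts in all (2 lower), where 6772 of 22276 genes were higher. With a floor of 50 CPM it was 72, where 1096 of 3960 genes were higher. With a fold limit of 1.5 it was 69, where 1870 of 10031 genes were higher. The cause of these shifts was not tested.

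No paired analysis was possible because the labels carry no replicate numbers and there was 1 culture, so no replicate could be left out either. Counting error was small for the sums, and it was wide for the genes of few UMIs, such as the restricted forms of complex IV and COX6A2 in other cells (46 UMIs). How the values vary between cultures was not measured.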
